A study of Mus musculus with 8 samples.

Results

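Protein-coding genes without introns were examined in nuclear RNA of HL1 cells. They were chosen by structure and by measured level, as assembled loci of the short-read table whose span shared at least 0.5 of the joint span, on the same strand, with a GENCODE M21 protein-coding gene whose every transcript has 1 exon, and whose mean over the 6 short-read libraries was at least 10 normalized counts. Replication-dependent histone genes (symbols starting with Hist), olfactory receptors (Olfr) and Jun, Junb, Jund, Ier2, Hspa1a and Hspa1b were left out. Of 22028 protein-coding genes in the annotation, 1344 are intronless. An assembled locus matched 271 of these, 237 reached the mean of 10, 49 were left out by symbol, and 188 remained. The short-read table has 65265 rows, of which 20637 are assembled loci, 44536 carry a reference accession and 92 are added ERCC standards. A further 83 intronless genes reached a value of 10 only in entries that carry a RefSeq accession and were not counted among the 188. The mean over both fractions chose the genes, so a gene near this minimum could enter through the fraction in which it was high. Of the 31 genes called higher in chromatin, 9 had a nucleoplasm mean under 10, and of the 130 called lower, 1 had a chromatin mean under 10.

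HL1 is a line of mouse atrial cardiomyocytes, grown in supplemented Claycomb medium with norepinephrine, with no other treatment or genotype among the groups. Nuclei were extracted with urea and detergent, the supernatant was taken as nucleoplasm and the pellet as chromatin, and ERCC standard RNA was added to each fraction before RNA purification. Short, strand-specific 50-base reads were collected from 3 chromatin and 3 nucleoplasm libraries of independent cultures, and long cDNA reads from 2 chromatin libraries. For the 3 nucleoplasm libraries the fraction label also says chromatin, but their titles name nucleoplasm, which was followed. Short-read libraries held 91657034 to 121773350 recovered reads. The chromatin RNA Malat1 was higher in chromatin by 3.82 ± 0.20 (SE) on the log2 scale and the mRNA Gapdh was lower by a log2 fold change of -2.07 ± 0.25 (limma, adjusted p = 3.84e-05 and 0.000893). Of 10 markers of atrial cardiomyocytes, 8 were found, with the sarcomere genes Myl7 and Actc1 at 4614 normalized counts or more in every library and the atrial hormone gene Nppa between 10.4 and 113. Of the 4 fibroblast markers, the collagen gene Col1a1 lay between 101002 and 344726 and Pdgfra between 699 and 2336. The other fibroblast markers were lower, with Col1a2 between 42.7 and 514 and Dcn between 20.3 and 350. The smooth muscle gene Myh11 lay between 345 and 868. The leukocyte gene Ptprc stayed at or under 4.07 and Adgre1 was listed at 0 in all 6 libraries. Of the endothelial markers, Cdh5 was listed at 0 throughout, Pecam1 lay between 0 and 54.1, and Kdr lay between 808 and 2570.

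An mRNA made from a gene without introns is never spliced, so it carries no exon junction complex and does not recruit the export machinery through splicing. Export of such mRNAs relies on the cap, on sequence elements in the RNA and on the TREX complex with the export receptor Nxf1. Intronless genes include ancient single-exon genes for receptors, transcription factors and histones, the genes of the mitochondrial chromosome, and retrocopies, which arose when a spliced mRNA was copied back into the genome and therefore resemble the exons of a gene elsewhere.

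Sequences of 2 kinds are printed here, and only the first bears on what the short reads could and could not tell apart. The first are coding stretches of the 3 nuclear genes with the highest long-read level, which are retrocopies of ribosomal protein genes. Each stretch runs from coding base 1 to 90, on the minus strand of mm10 (GRCm38), as GENCODE gives it. Rps27rt (chr9:114982618-114982707) matches the 4-exon gene Rps27 at every one of 252 coding bases, and Rpl10-ps3 (chr9:50344852-50344941) matches the 6-exon gene Rpl10 at all 642. Gm10073 (chr8:106573261-106573350) differs from the 3-exon gene Rplp1 at 5 of 342 coding bases, and capitals mark the 2 of them that fall in the stretch.
Rps27rt: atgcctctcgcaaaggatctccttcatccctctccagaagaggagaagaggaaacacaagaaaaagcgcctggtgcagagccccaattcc
Rpl10-ps3: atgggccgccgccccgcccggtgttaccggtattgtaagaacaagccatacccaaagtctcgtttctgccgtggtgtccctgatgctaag
Gm10073: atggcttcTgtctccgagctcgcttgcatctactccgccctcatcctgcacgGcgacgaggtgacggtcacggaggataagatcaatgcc
Rplp1: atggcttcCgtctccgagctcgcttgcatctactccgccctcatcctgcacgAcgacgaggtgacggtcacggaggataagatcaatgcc

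The second are the 250 bases before the start of the 2 genes with a RefSeq promoter that rose most in chromatin and the 2 that fell most, shown for their CG dinucleotides, which are in capitals. They come from RefSeq on GRCm38.p6, where 111 of the 188 genes had a promoter. Pou5f2 is at chr13:78024652-78024901 on the plus strand, Gm4787 at chr12:81379487-81379736 on the minus strand, Rraga at chr4:86575423-86575672 on the plus strand and 2310039H08Rik at chr17:46772385-46772634 on the plus strand.
Pou5f2: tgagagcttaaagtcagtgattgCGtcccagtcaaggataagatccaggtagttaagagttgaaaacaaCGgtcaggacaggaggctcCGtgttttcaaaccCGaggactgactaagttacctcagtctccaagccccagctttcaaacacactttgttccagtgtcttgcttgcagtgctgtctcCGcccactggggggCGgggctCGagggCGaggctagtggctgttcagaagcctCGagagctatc
Gm4787: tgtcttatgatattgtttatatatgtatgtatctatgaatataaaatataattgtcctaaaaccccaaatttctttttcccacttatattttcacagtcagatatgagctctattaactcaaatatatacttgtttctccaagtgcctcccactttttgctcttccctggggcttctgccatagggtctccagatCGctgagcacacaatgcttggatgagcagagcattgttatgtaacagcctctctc
Rraga: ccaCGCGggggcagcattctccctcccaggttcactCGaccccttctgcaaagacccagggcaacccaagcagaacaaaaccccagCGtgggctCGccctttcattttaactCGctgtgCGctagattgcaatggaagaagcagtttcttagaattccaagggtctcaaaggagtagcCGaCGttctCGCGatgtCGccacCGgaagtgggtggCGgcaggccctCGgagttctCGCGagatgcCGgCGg
2310039H08Rik: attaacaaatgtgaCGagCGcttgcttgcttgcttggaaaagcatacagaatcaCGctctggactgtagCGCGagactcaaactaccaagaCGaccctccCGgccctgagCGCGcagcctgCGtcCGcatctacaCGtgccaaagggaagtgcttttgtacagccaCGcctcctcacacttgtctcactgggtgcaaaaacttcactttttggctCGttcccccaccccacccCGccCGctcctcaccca

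These 4 promoters hold 9, 1, 19 and 16 CG dinucleotides, in the order printed. Over the genes with a promoter, the median number was 16 for the 75 that were lower in chromatin and 3 for the 19 that were higher, beside 15 for 1152 spliced genes of a similar span and 6 for all 32851 promoters of the table. At least 1 CG was found in 92.1% of all promoters and in 95.5% of those of the intronless genes. CG reads the same on both strands, and the count is a description of these windows. Genes called higher also had a lower level per kb of exon (median 46.9 against 672), and 18 of all 31 lie inside another gene. The CG medians are therefore not read as a trait of the call.

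Most intronless genes were lower in chromatin than in nucleoplasm. Of the 188, 130 were lower, 31 were higher and 27 did not pass the test (limma on log2(normalized count + 1), adjusted p under 0.05). Over all 35830 rows tested, called all genes or all genes tested below, 20.9% were lower and 26.9% were higher, beside 69.1% and 16.5% of the intronless genes. These rows include entries with a reference accession, ERCC standards and rows with a mean under 10, whereas the intronless genes were assembled loci of at least 10. Among the 19725 assembled loci tested, 35.5% were lower and 32.5% were higher. When only the 23911 rows with a mean of at least 10 were fitted, 7637 were lower and 7914 higher. In that fit 135 of the intronless genes were lower and 32 higher. The median log2 fold change of the intronless genes was -1.16, with quartiles of -1.81 and -0.25. It was 0.38 for all genes and 0.02 for the assembled loci. More than 4-fold falls were seen in 38 of the 188 and more than 4-fold rises in 18. Of all genes tested, 4.90% had more than 4-fold falls, and 15.4% had more than 4-fold rises and a span over 200 bp. In 135 genes every nucleoplasm library was above every chromatin library, in 35 the reverse held, and in 18 the fractions overlapped. Over all genes tested, 23.8% had every nucleoplasm library above every chromatin library and 31.5% the reverse. None of the 188 was at 0 in all libraries of a fraction. With each library scaled to the ERCC standards, 68 were lower and 38 higher, the median of all genes moved to 0.83 and that of the intronless genes to -0.43, so relative to all genes they stayed lower, by -1.54 as deposited and by -1.26 after ERCC scaling. It turned the sign of 31 of the 188, 17 of them called without it.

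**Figure D1:**
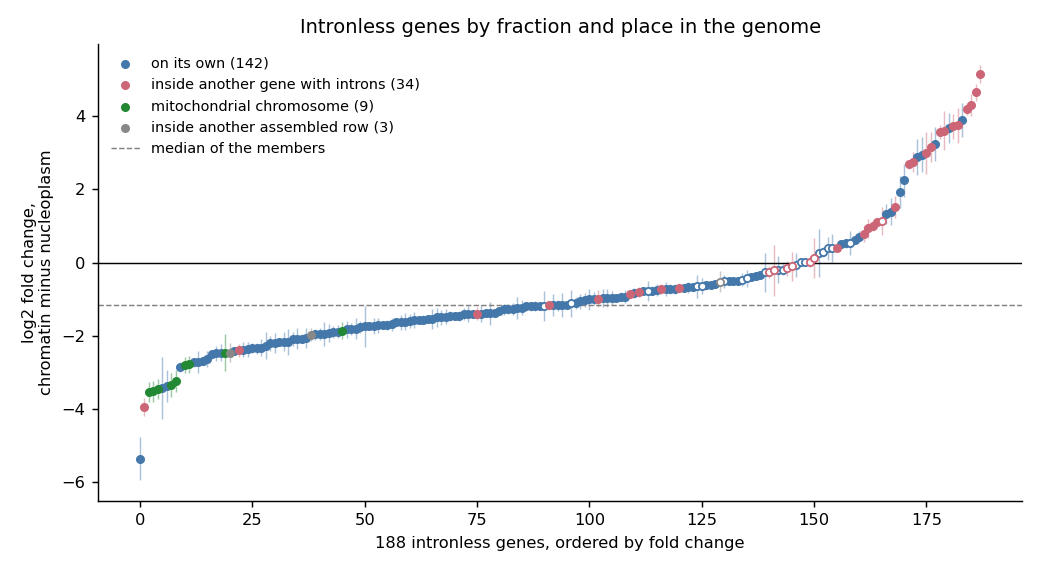
Log2 fold change (chromatin minus nucleoplasm, vertical axis) of the 188 intronless genes in rising order, with the SE from limma as bars. Filled points passed the test and open points did not. The 9 mitochondrial genes all lie below 0, and 18 of the 31 genes called higher lie inside another gene.

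The share called lower was close to that of spliced genes that occupy as little of the genome. Among 1531 spliced protein-coding genes within the same range of spans (334 to 8478 bp), 74.0% were lower and 7.97% were higher in chromatin, with a median log2 fold change of -1.34. Fold change moved with length in both sets. For loci under 1 kb the median was -2.37 in 33 intronless and -2.32 in 16 spliced genes, for 1 to 2 kb it was -1.39 and -2.08 (66 and 96 genes), for 2 to 4 kb -0.86 and -1.60 (63 and 389 genes) and for 4 to 8 kb -0.50 and -1.16 (25 and 931 genes). Weighted by the intronless genes in each class, the median of the intronless genes was 0.57 higher on the log2 scale at the same span. In the 3 same-numbered library pairs this difference was 0.53, 0.52 and 0.59.

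A spliced gene of the same span has fewer exon bases, and the difference did not hold when genes were classed by exon bases instead, an alternative chosen after the data were seen. The weighted difference was then -0.10. In the class of 1 to 2 kb of exon the medians were -1.41 for 67 intronless and -1.47 for 964 spliced genes, and for 2 to 4 kb they were -0.84 and -0.78 (58 and 2832 genes). Under 1 kb the intronless genes were lower, with -2.39 against -2.10 (31 and 185 genes), and at 4 to 8 kb also, with -0.50 against -0.19 (31 and 3498 genes). Across the 188 genes, Spearman's rho between fold change and exon bases was 0.51, and between fold change and mean level per kb of exon it was -0.68, whereas with the GC content of the transcript it was -0.06. These are descriptions over genes that share the same 6 libraries. The level is built from the same values as the fold change, and the mean of 10 also chose the genes by level.

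**Figure D2:**
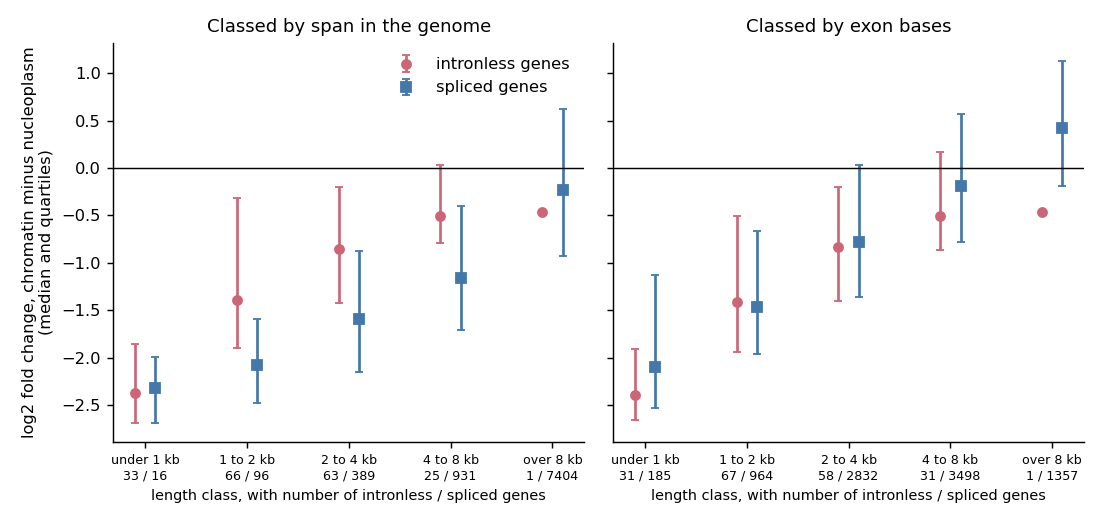
Median log2 fold change (chromatin minus nucleoplasm) with quartiles for intronless genes (circles) and spliced protein-coding genes (squares), classed by span in the genome (left) or by exon bases (right). From 1 to 8 kb of span the intronless genes lie above the spliced genes by 0.66 to 0.74, while at equal exon bases the medians from 1 to 4 kb differ by less than 0.06.

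The genes split by where they lie in the genome. On the mitochondrial chromosome 9 of 9 were lower, with a median of -3.23. Another gene with introns, on the same strand, enclosed 34, and of these 18 were higher and 9 lower, with a median of 0.86. A further 3 lay inside another assembled locus. The remaining 142 stood on their own, and of these 110 were lower and 13 higher, with a median of -1.23. Beside these counts stand 20.9% lower and 26.9% higher over all genes tested, and 35.5% and 32.5% of assembled loci. Among spliced genes within the same range of spans, 74.0% were lower and 7.97% higher. At the same span the genes on their own were 0.46 above spliced genes, and at the same exon bases they were 0.24 below (-0.24).

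The mitochondrial genes code for subunits of the respiratory chain and are transcribed inside mitochondria rather than in the nucleus. mt-Co1, which codes for a core subunit of cytochrome c oxidase, had the highest level of all 188 genes per kb of exon, at 93318 normalized counts per kb. It stood at 18144, 23198 and 39760 normalized counts in chromatin and at 296341, 287287 and 200327 in nucleoplasm. The nucleoplasm values were all above the chromatin values, and the log2 fold change was -3.33 ± 0.33 (SE, adjusted p = 0.000366). The complex I subunit genes mt-Nd4 and mt-Nd5 and the complex III gene mt-Cytb changed by -3.54, -3.46 and -3.52 on the log2 scale, and each was lower in 3 of 3 same-numbered pairs. mt-Nd4 ranged from 3353 to 5973 in chromatin and from 38825 to 63994 in nucleoplasm. mt-Nd1 fell by 2.80 and mt-Co2 by 3.23. The least change was in mt-Nd6, which lies on the other strand of this chromosome, with -1.86 ± 0.23 (adjusted p = 0.00102). Between 7.61% and 100% of the 50-base windows of mt-Nd5, mt-Co1, mt-Nd4 and mt-Co2 also occur in transcripts of other genes, and none of those of mt-Cytb, mt-Nd1 and mt-Nd6 do.

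Among nuclear genes the largest fall was in Rraga, which codes for RagA, a small GTPase that relays amino acid supply to mTORC1. Rraga (chr4:86575668-86577285, mm10) had 88.4, 176 and 32.3 normalized counts in chromatin and 3857, 3265 and 2839 in nucleoplasm. The fractions were far apart in every pair, although the chromatin libraries varied among themselves, and the log2 fold change was -5.35 ± 0.59 (SE, limma, adjusted p = 0.000578). 2310039H08Rik, a gene of unassigned function, had 31.5, 35.6 and 26.0 in chromatin and 529, 596 and 374 in nucleoplasm, a log2 fold change of -3.95 ± 0.24 (adjusted p = 6.0e-05). It lies in an intron of the lincRNA gene Gm26904, which had no assembled locus of its own in the table. Ufsp1, which is related to a protease of the ufmylation pathway, fell by 3.37 from low values, 36.4 to 80.3 in nucleoplasm and 3.05 to 5.24 in chromatin.

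Of 11 genes on the list for RNA binding, RNA processing and translation, 10 were lower, beside 69.1% of all the intronless genes and 74.0% of spliced genes of the same range of spans, and Purb, which codes for a protein that binds single-stranded nucleic acids, was not called. The list was chosen with earlier results known, and its wildcard symbols bring in 5 ribosomal protein retrocopies, so nothing particular to the list is read from its count. Imp3, a protein of the U3 snoRNP, had 898 to 1238 normalized counts in chromatin and 3793 to 4921 in nucleoplasm, a log2 fold change of -1.96 ± 0.16 (adjusted p = 0.000179). Rnf113a2, which codes for a zinc finger protein of the spliceosome and lies in an intron of Bbof1, fell by 1.40 ± 0.17 while Bbof1 itself was higher by 2.39 ± 0.15. Outside the list and named after their values were seen, Utp3 of the small subunit processome fell by 1.81 and Pcbp1, a poly(C)-binding protein, by 2.16. Hexim1, which holds the elongation kinase P-TEFb inactive, had 797, 913 and 832 in chromatin and 2091, 2305 and 2258 in nucleoplasm, and fell by 1.39 ± 0.09 (adjusted p = 7.7e-05).

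H1f0 and H1fx, which code for linker histones, were lower, while the spermatid linker histone gene Hils1 was higher. H1f0 codes for a linker histone of non-dividing cells and was among the most abundant nuclear genes, with 15417, 18305 and 10634 normalized counts in chromatin and 36879, 44254 and 34049 in nucleoplasm. The log2 fold change was -1.40 ± 0.22 (adjusted p = 0.00279), and after ERCC scaling it was -0.67 and did not pass. H1fx stood at 305, 443 and 168 against 1400, 1664 and 1102, and its change was -2.27 ± 0.37 (adjusted p = 0.00306). Hils1, on no list and named after its values were seen, had 31.5, 28.3 and 58.3 against 13.1, 13.2 and 14.5, and rose by 1.39 ± 0.38 (adjusted p = 0.0235). Its call was lost with quantile normalization (0.38) and without chromatin replicate 1 (1.51) or nucleoplasm replicate 1 (1.37), 2 (1.37) or 3 (1.44). The third gene on the chromatin list, the testis histone variant H2al1m, was higher by 1.52 ± 0.31 (adjusted p = 0.00735), and with quantile normalization it stood at 0.42 and did not pass. It lies in an intron of Xk, and 83.7% of its 50-base windows occur in other genes of its family.

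Frizzled genes, the receptors for Wnt ligands, made up 4 of the 5 genes on the receptor list, and 3 of the 4 were lower, beside 69.1% of all the intronless genes. Fzd2 had 935, 1239 and 836 normalized counts in chromatin and 3504, 3857 and 3684 in nucleoplasm, and its log2 fold change was -1.89 ± 0.16 (adjusted p = 0.000183). Fzd7 changed by -0.97 ± 0.26 (adjusted p = 0.0231) and Fzd8 by -0.72 ± 0.19 (adjusted p = 0.0230), though Fzd8 stood at 0.018 after ERCC scaling. Fzd1 had 2700, 3173 and 1432 in chromatin and 5930, 6250 and 3381 in nucleoplasm. Replicate 3 was low in both fractions for Fzd1, and its change of -1.12 ± 0.37 did not pass (adjusted p = 0.0510), but with the replicate number as a block it did (adjusted p = 0.000613). It also passed by edgeR (-1.19), DESeq2 (-1.09), with TMM scaling (-1.22) and when only rows with a mean of at least 10 were tested. The call of Fzd7 was lost after ERCC scaling (-0.23) and without chromatin replicate 1 (-1.06) or nucleoplasm replicate 1 or 2 (-0.89 each). That of Fzd8 was lost with quantile normalization (-0.46) and without chromatin replicate 1 (-0.754) or 3 (-0.57) or nucleoplasm replicate 1 (-0.70) or 2 (-0.59).

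Of 5 transcription factor genes on the list, 3 were lower, beside 69.1% of all the intronless genes. Cebpb, a bZIP factor, had 436, 568 and 904 normalized counts in chromatin and 1195, 1702 and 1969 in nucleoplasm, a log2 fold change of -1.39 ± 0.31 (adjusted p = 0.0121). Its call was lost after ERCC scaling (-0.65) and without chromatin replicate 1 (-1.15) or 2 (-1.34) or nucleoplasm replicate 2 (-1.34) or 3 (-1.23). Foxs1, a forkhead factor, fell by 1.60 ± 0.19, and Ier5, an immediate early response gene, by 0.51 ± 0.09 (adjusted p = 0.00494), although Ier5 stood at 0.22 after ERCC scaling. Sox4, an SRY-box factor of heart and nerve development, had 4856, 5506 and 3304 in chromatin and 7294, 8100 and 4383 in nucleoplasm. Its fractions overlapped, and the change of -0.52 ± 0.30 did not pass (adjusted p = 0.209), whereas with the replicate block it did (adjusted p = 0.00347), and after ERCC scaling it was 0.22. Rhob, a small GTPase of the actin cytoskeleton, changed by -0.99 ± 0.18 (adjusted p = 0.00457), and after ERCC scaling it stood at -0.26 and did not pass. Purb was the longest of the 188 and showed no overlap, with 20150 to 27067 in chromatin and 27522 to 37264 in nucleoplasm. Its change of -0.46 ± 0.17 did not pass (adjusted p = 0.0718), and with the block it did (adjusted p = 0.00710). Purb also passed by edgeR (-0.57), DESeq2 (-0.46), with TMM scaling (-0.57) or quantile normalization (-0.89) and without nucleoplasm replicate 3 (-0.59), and after ERCC scaling it was 0.27.

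Lrrc10, a leucine-rich repeat gene of heart muscle named after its values were seen, was low in both fractions of replicate 3. It had 490, 490 and 194 normalized counts in chromatin and 608, 578 and 228 in nucleoplasm. The change of -0.26 ± 0.53 did not pass (adjusted p = 0.704), and with the block it did (adjusted p = 0.0387). After ERCC scaling it stood at 0.47 and without chromatin replicate 3 at 0.19.

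**Figure D3:**
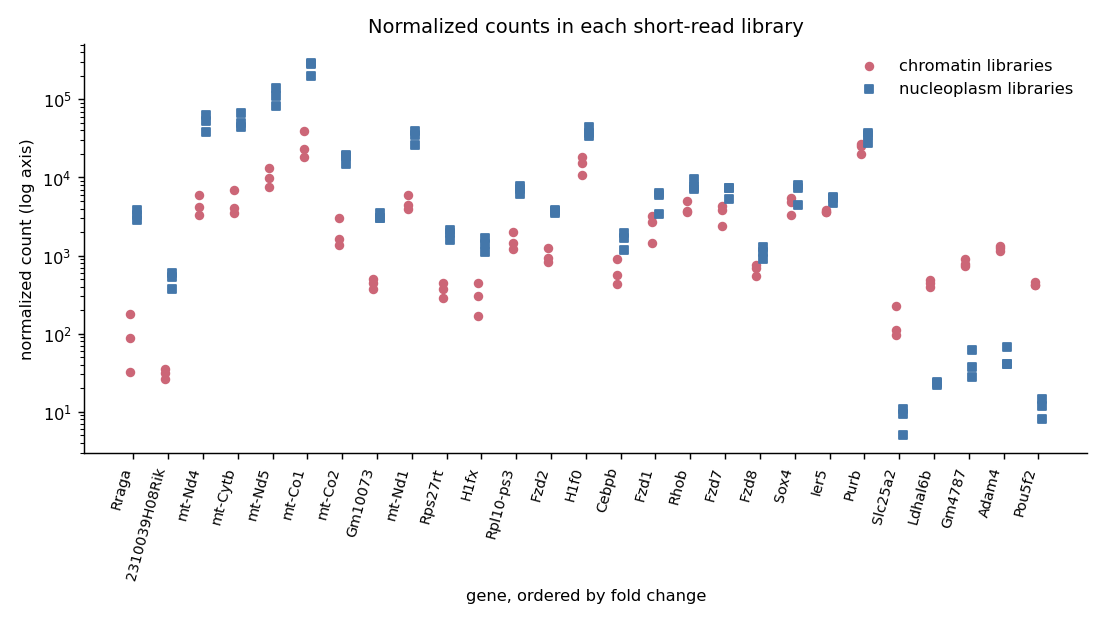
Normalized counts (log axis) of the intronless genes singled out by rank or role in each of the 3 chromatin (circles) and 3 nucleoplasm (squares) libraries, ordered by fold change. All nucleoplasm libraries lie above all chromatin libraries from Rraga to Purb except for Sox4, and below them for Slc25a2, Ldhal6b, Gm4787, Adam4 and Pou5f2.

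Of the 18 genes that rose more than 4-fold, 12 lay inside another gene. The nucleoplasm mean was under 10 in 9 of the 18 and in 5 of the 12, so these reached the mean of 10 through chromatin and had to be higher there, and the counts are given as a description. Pou5f2 (chr13:78024902-78026295), a POU domain factor known from testis, lies in an intron of Fam172a. It had 426, 420 and 454 normalized counts in chromatin and 8.08, 12.0 and 14.5 in nucleoplasm, and its log2 fold change was 5.15 ± 0.25 (SE, limma, adjusted p = 3.5e-05), while that of Fam172a was -0.03 ± 0.13 (0.71 after ERCC scaling). Adam4, a metalloprotease gene of the ADAM family, and Gm4787, with which it shares 50-base windows, both lie in introns of Gm20498. Adam4 had 1233, 1133 and 1337 against 40.4, 40.8 and 67.4, a rise of 4.65 ± 0.23, and Gm4787 had 778, 744 and 913 against 37.4, 27.6 and 60.9, a rise of 4.31 ± 0.30. The enclosing gene rose by 0.53 ± 0.09. Ldhal6b, a lactate dehydrogenase-like gene in an intron of Tmem242, had 444, 397 and 481 against 23.2, 24.0 and 21.7. It rose by 4.20 ± 0.16 (adjusted p = 2.4e-05) and Tmem242 fell by 0.60 ± 0.08, although Tmem242 stood at 0.14 after ERCC scaling.

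Over all 34 enclosed genes, 31 lay in introns with no base of an enclosing exon. They sat in 24 genes, of which 19 had a locus in the table, 8 higher and 4 lower, with a median of 0.18. Among all assembled loci tested, 32.5% were higher and 35.5% lower. In 29 pairs with a fold change for both, the intronless gene was the higher in 19, and Spearman's rho between the pair was -0.36, a description in which the 10 beta protocadherins share 1 enclosing gene. Enclosed genes were not all higher. Chmp1b, a subunit of the ESCRT-III membrane scission complex in an intron of Gnal, had 583 to 777 normalized counts in chromatin and 1053 to 1202 in nucleoplasm, a change of -0.70 ± 0.14 (adjusted p = 0.00681) that was 0.030 after ERCC scaling, while Gnal rose by 1.62. Short reads do not tell an intronless mRNA from the unspliced intron that contains it on the same strand, so in these genes the 2 sources cannot be told apart.

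**Figure D4:**
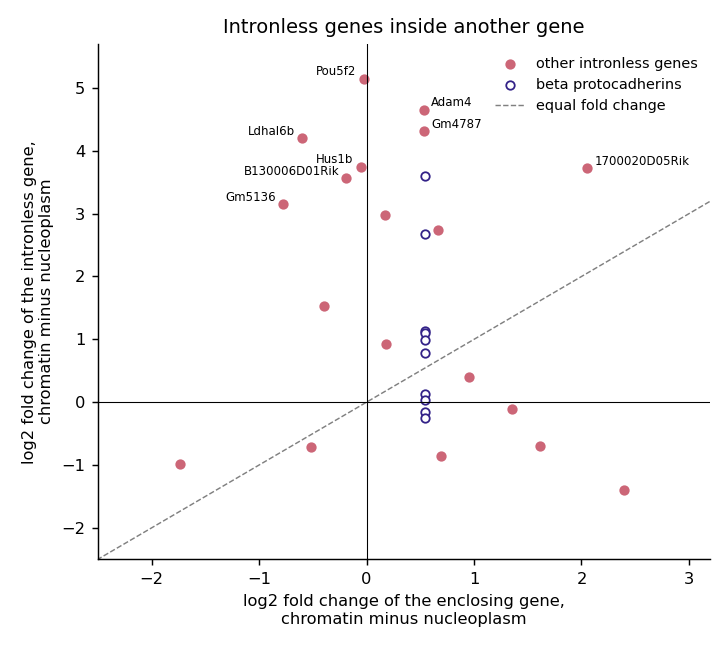
Log2 fold change (chromatin minus nucleoplasm) of 29 intronless genes against that of the gene with introns that encloses each on the same strand. Open circles are the 10 beta protocadherins, which share 1 enclosing gene, and the dashed line marks equal change, with 19 points above it.

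The beta protocadherins, single-exon adhesion genes arranged in a cluster, were the largest family among the enclosed genes. Of 10, 5 were higher and 5 were not called, with a median of 0.89, beside 26.9% higher among all genes tested and 16.5% of the 188. All 10 lie in introns of the annotated read-through gene Gm42416, which rose by 0.54 ± 0.18. Pcdhb19 had 650, 648 and 700 normalized counts in chromatin and 111, 108 and 90.6 in nucleoplasm, a rise of 2.68 ± 0.13 (adjusted p = 3.35e-05). Pcdhb1 rose by 3.60 ± 0.54 from 1.20 to 3.62 in nucleoplasm to 26.2 to 65.6 in chromatin. Its nucleoplasm mean was 2.28, so it reached the mean of 10 through chromatin and had to be higher there.

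Outside other genes, 13 were higher. Slc25a2, an ornithine transporter of the mitochondrial membrane and the fifth largest rise, had 113, 95.4 and 223 normalized counts in chromatin and 5.05, 10.8 and 9.42 in nucleoplasm, and its log2 fold change was 3.90 ± 0.45 (adjusted p = 0.000723). The same-strand gene Taf7 ends 1746 bp upstream of it. Pnma1, a paraneoplastic antigen gene named after its values were seen, rose by 3.67 ± 0.41 and lies 687 bp downstream of Elmsan1. Rep15, Cldn20 and Actl10, named likewise, have a same-strand gene ending 559, 1210 and 1773 bp upstream. Cldn20 and Actl10 also had nucleoplasm means under 10 (3.60 and 8.60), so they too had to be higher in chromatin. For the other 8 of the 13 the upstream distance ran from 2461 to 1657842 bp. All these distances were measured only to same-strand protein-coding genes with introns. The part that reads of these neighbours may have in the rises was not tested. Pigm, a mannosyltransferase of GPI anchor synthesis, was the most abundant of the 13, with 4488, 4210 and 4989 in chromatin and 2970, 2652 and 3305 in nucleoplasm, and rose by 0.62 ± 0.11 (adjusted p = 0.00529). Genes called higher had a median of 46.9 normalized counts per kb of exon against 672 for those called lower.

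Genes that resemble others had the lower median. The counts of calls given here stand beside 20.9% lower and 26.9% higher over all genes tested, and 35.5% and 32.5% of assembled loci. At least 10% of the 50-base windows occurred in transcripts of another gene for 52 nuclear genes, of which 42 were lower and 8 higher, with a median of -1.70. For the 127 other nuclear genes, 79 were lower and 23 higher, with a median of -0.94. The 2 sets were not matched for length, with which fold change moved, so the part of length in this difference was not tested. The retrocopies whose sequences are printed above are in the first set. Gm10073 had 372, 451 and 499 normalized counts in chromatin and 2989, 3044 and 3517 in nucleoplasm, a log2 fold change of -2.86 ± 0.14 (adjusted p = 3.3e-05). Rps27rt stood at 283, 369 and 451 against 1592, 1955 and 2097 and changed by -2.37 ± 0.20, and Rpl10-ps3 at 1200, 1464 and 2018 against 6199, 7110 and 7782, by -2.20 ± 0.21. A short read from a shared window cannot be assigned to the copy or to the spliced gene, so these values may hold reads of Rplp1, Rps27 and Rpl10, and the size of that part was not tested. Without genes with shared windows, 84 of 132 were lower, the median was -0.97 and the difference from spliced genes of the same span was 0.67.

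Other genes of the export pathway moved in both directions. Of 33 listed mRNA export factors, 30 had an assembled locus, 9 were higher, 12 lower and 9 not called. That is 30% higher and 40% lower, beside 24.6% and 46.0% of 8836 spliced protein-coding genes. Among all assembled loci tested the shares were 32.5% and 35.5%. Nothing particular to the pathway is read from these counts. The export receptor Nxf1 had a change of -0.0035 ± 0.08 (adjusted p = 0.974) and stood at 0.73 after ERCC scaling, while its cofactor Nxt1 fell by 1.56 ± 0.15. Within the TREX complex Thoc2 rose by 1.43 ± 0.10, Ddx39b rose by 0.38 ± 0.09, and Thoc3 and Alyref changed by -1.47 ± 0.09 and -0.60 ± 0.14, although Alyref stood at 0.13 after ERCC scaling. Nxt1 stood at -0.82 after this scaling and did not pass. Alyref2, an intronless relative of the export adaptor Alyref and itself one of the 188, had 165, 163 and 123 normalized counts in chromatin and 324, 382 and 373 in nucleoplasm, and its change was -1.26 ± 0.17 (adjusted p = 0.00124), which after ERCC scaling was -0.53 and did not pass.

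In the long-read libraries of chromatin, 167 of 188 intronless genes had a transcript on their own strand. Of these, 148 were found in both libraries, and the median TPM over all 188 was 4.37. The genes without such a transcript had a lower median in short reads (222 normalized counts against 872 for those with one). The highest long-read levels were those of Gm10073, with 1146 and 1888 TPM, Rps27rt, with 823 and 847, Rpl10-ps3, with 760 and 559, mt-Co1, with 809 and 452, and mt-Co2, with 694 and 516. The first 3 of these are retrocopies, and 2 of the 5 are mitochondrial. The 3 retrocopies share most or all coding bases with Rplp1, Rps27 and Rpl10, so their values may hold long reads of those spliced genes. The size of that part was not tested. Pou5f2, first by rise in short reads, was at 0 TPM in both libraries, and Ldhal6b and Adam4 had 1.96 and 4.78 TPM and 1.74 and 3.85 TPM. Across the 188 genes, those with shared windows included, Spearman's rho between long-read TPM and short-read level per kb in chromatin was 0.66.

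**Figure D5:**
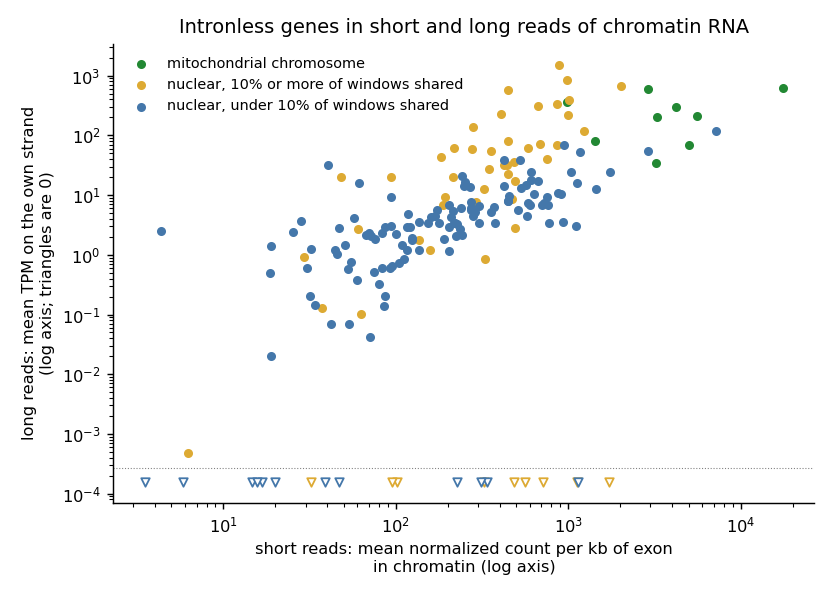
Mean TPM of transcripts on the own strand in the 2 long-read libraries against the mean normalized count per kb of exon in the 3 short-read chromatin libraries, both on log axes, for 188 intronless genes. Triangles along the bottom are the 21 genes at 0 TPM, and genes that share windows with others reach the highest long-read values among nuclear genes. The part of reads from those other genes was not tested.

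Long-read cDNA libraries of this kind do not keep the strand of origin, and the assembly used here was made without strand. The study also developed a way to infer strand from primer sequences in the reads. Transcripts on the opposite strand, with the same overlap, held 10.1% and 10.0% of the long-read TPM of intronless genes in the 2 libraries, and were seen at 11 of the 188. For spliced genes of the same span range the share was 36.0% and 36.6%, at 30.6% of 1531 genes. At most genes the own-strand value came from transcripts with a reference accession, since only 21 of the 188 had an assembled model on the own strand. Those models nevertheless held 4935 of the 9621 TPM summed over the own strand of the intronless genes. Counting assembled models only, the opposite-strand share was 17.9% for intronless and 63.9% for spliced genes. The opposite-strand TPM of intronless genes was 1075 in both counts, so transcripts with a reference accession added only to the own strand. The shares of 10.1% and 10.0% therefore rest in part on the strand that the annotation gives. At 4 genes, Gm8797, Gm11361, Gm10260 and AC117239.2, the long-read transcript was on the opposite strand alone, and all 4 share at least 57.7% of their windows with other genes. Gm11361, for instance, had 374 and 313 TPM on the opposite strand and 0 on its own, and mt-Cytb had 164 and 160 on the opposite strand beside 297 and 311 on its own.

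At the edge of the rule, the 3 genes just above a mean of 10 were Mageb3 with 11.9 normalized counts, Pcdhb5 with 12.1 and Ccdc54 with 14.4. Just under it lay Pcdhb12 with 9.92, Oxct2b with 8.42 and Pcdhb13 with 7.94.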

How the data were processed

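Short-read values are normalized counts. Per the labels and the study's methods, the authors aligned reads to mm10 with HISAT2 2.1.0, assembled and estimated transcripts with StringTie, and deposited the gene signal, coverage-derived counts divided by DESeq2 size factors, without scaling for length. Long-read values are StringTie TPM that the authors deposited after alignment with minimap2, on an assembly made without strand. Samples were grouped by title, and no column was left unmapped. Each short-read value was a whole multiple of the value of 1 read (tolerance 0.001) in 100% of cases, and the implied size factors were 0.834 to 1.38. Each error rests on only 3 libraries a fraction, and low values carry counting error too.

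Fractions were compared with limma 3.58.1 in R 4.3.3 on log2(normalized count + 1) with its trend of variance on mean, for all rows above 0 in at least 1 library, two-sided, with Benjamini-Hochberg adjustment over all rows. edgeR 4.0.16 and DESeq2 1.42.0 on recovered reads were alternatives, since the deposited values are already normalized. A log2 fold change on this scale understates the change of low genes. Other alternatives changed the pseudocount, the filter, the scaling, the trend, the overlap, the libraries and the genes included. The fits were tested on simulated data. Replicate numbers come from the sample titles. Over 23911 rows, deviations from the fraction means correlated by 0.119, 0.102 and 0.249 between same-numbered libraries and by -0.158 to 0.0631 between others, so the numbers were taken to pair the libraries.

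Gene models, coordinates and transcripts are from GENCODE M21. Windows of 50 bases, the read length, were called shared where a transcript of another gene holds the same bases. A gene was taken as enclosed where at least 90% of it lies inside another same-strand gene with introns. Promoters are from RefSeq (GRCm38.p6). The planned comparison of proteins was not made, as protein sequences were not used here. Members and lists were chosen with earlier results of these data known. The genes named are the 5 largest rises and 5 largest falls with the same direction in all 3 pairs, the 5 highest per kb of exon, the 5 highest in long reads, a list by role, and the 3 on either side of the mean of 10. All other genes named were chosen after their values were seen. Tables were handled in Python 3.11.15 with pandas 2.3.3 and numpy 2.4.6.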

Additional observations from a re-analysis of the deposited data

How the results depend on the processing

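The comparison rests on 3 libraries per fraction, each a share of the same mass of RNA, so a change of scale moves every gene together. Scaling to the ERCC standards, whose totals differed by -0.73 (log2, chromatin minus nucleoplasm), left 68 intronless genes lower in chromatin in place of 130, with a median of -0.43, and 3109 of all rows lower in place of 7477. Sox4 (0.22), Ier5 (0.22), Fzd8 (0.018), Purb (0.27), Chmp1b (0.030) and Lrrc10 (0.47) then changed sign. Lrrc10 ranged from -0.72 without nucleoplasm replicate 3 to 0.19 without chromatin replicate 3. The median was -1.27 with TMM scaling and -1.27 by edgeR with the replicate block. The count of calls with the replicate block in limma was 140 lower and 33 higher, and 161 of the 173 were called without it. Among the named genes the block changed the call of Sox4, Fzd1, Purb and Lrrc10 and no other.

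The number of intronless genes higher in chromatin fell from 31 to 18 at a mean of at least 100, and to 13 without those that touch a same-strand coding gene, for those on their own, and where both sets touch no same-strand gene. The median was -1.28 at a mean of at least 100 and -1.28 without those touching a coding gene. Leaving out genes with shared windows gave 84 lower and a median of -0.97.

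The difference from spliced genes of the same span, 0.57, was 0.51 with a pseudocount of 10, 0.61 with quantile normalization, 0.53 and 0.62 at overlaps of at least 0.7 and 0.9, 0.50 at means of at least 50 and of at least 100, 0.42 without genes touching a coding gene, 0.67 without shared windows, 0.46 for genes on their own, 0.47 where both sets touch no same-strand gene, and -0.10 at the same exon bases. Its cause was not tested.

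With single libraries left out there were 120 to 126 genes lower and 25 to 30 higher, medians of -1.24 to -1.07, a difference of 0.49 to 0.65, 6594 to 7292 of all rows lower and 8378 to 9183 higher. The opposite-strand share of long-read TPM, 10.1%, was 10.0% to 10.1% with either library left out, 8.70% at an overlap of 0.7, 17.9% for assembled models only, 12.4% without genes that have a gene on the opposite strand and 9.27% without shared windows. The planned comparison without genes that share a protein was not run. Alternatives on shared windows, on genes on their own, on exon bases and the block in edgeR were chosen after the data were seen.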
